A study of Mus musculus with 768 samples.

Results

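CD25-positive thymocytes of germline Tcf7-/- mice were compared with those of wild-type (WT) mice, by the RNA of single cells sorted into plates. The cells are the plate labelled Tcf7-/- DN2-3 and the plate labelled WT DN2-3, each with 96 cells. Only cells in which 1000 or more genes were detected entered, which left 93 Tcf7-/- cells and 88 WT cells, together 181 of the 675 kept cells of the series. The whole series holds 768 cells on 8 plates and 4 genotypes. The Tcf7-/- group is homozygous for a Tcf7 null allele by its label, and the WT group carries no listed allele. Both groups are C57BL/6 mice aged 6 to 8 weeks, with no listed treatment. Both plates come from the same sort gate of the thymus, CD45-positive and lineage-negative cells without CD4 and CD8 and with CD25, which takes the DN2 and DN3 stages. The labels do not say how many animals gave each plate, so each genotype is 1 library and no test between genotypes was possible. Intervals are 95% and cover counting error only.

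Tcf7 encodes TCF1, a DNA-binding protein of the TCF and LEF family. It is switched on by Notch signals when progenitors enter the thymus, and it helps turn on the T lineage genes of the DN2 stage. In the DN2 stage cells still hold progenitor transcripts such as Cpa3 and Kit, while in the DN3 stage they rearrange the T-cell receptor beta locus and make Ptcra, the partner chain of the pre-T-cell receptor. Cells that pass this checkpoint divide quickly and move on to express CD4 and CD8. Mice without TCF1 are known to have a small thymus, and some of them develop T-cell leukaemia.

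Tcf7 itself, the targeted gene, had 122 CPM (summed counts of the gene scaled to the library total; interval 115 to 130.0) in the summed Tcf7-/- cells, against 862 CPM (836 to 888) in the WT cells. On the scale used throughout, log2 of the ratio of CPM after adding 10 CPM to each, the difference was -2.72. After thinning each cell to 20000 counts, 84 Tcf7-/- and 72 WT cells were deep enough, with a lowest, median and highest Tcf7 count per cell of 0, 1 and 14 in Tcf7-/-, against 0, 18 and 92 in WT. Tcf7-/- cells lay mostly below the WT cells, with some overlap. The series also holds DN2-3 plates of Tcf7fl/fl mice with Vav-cre, active in all blood cells, or with Lck-cre, active from T-cell precursors on. Tcf7 had 964 CPM in the Vav-cre plate, and the Lck-cre plates gave 762 and 658 CPM, so its count does not check the deletion there. The sources used here do not say which part of the gene is missing in Tcf7-/- mice or which part of the transcript is read.

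The Tcf7-/- library is the deeper of the pair, with 8371808 summed counts against 4976245 in WT, and medians of 70003 against 43592.5 counts and 3671 against 2856.5 genes per cell. The Tcf7-/- entries carry a different form of label from the other plates, and may be a batch of their own. Sex-linked transcripts also differed: Xist, the RNA that silences an X chromosome in female cells, had 0.12 CPM in Tcf7-/-, against 485 CPM in WT, while the Y-linked Ddx3y had 45.5 CPM in Tcf7-/-, against 0.201 CPM in WT, and Eif2s3y had 65.9 CPM in Tcf7-/-, against 0 in WT. Of the thinned cells, Xist was in 1.19% in Tcf7-/-, 70.7% in Vav-cre, 68.4% and 75.8% in the Lck-cre plates and 86.1% in WT. Ddx3y was in 40.5% in Tcf7-/-, 0% in Vav-cre and both Lck-cre plates and 1.39% in WT. The labels name no sex. Sex, batch and genotype cannot be told apart between Tcf7-/- and the other DN2-3 plates. Of the 246 measured genes of the X chromosome 3 were at least 2-fold higher and 28 lower, and on the autosomes 254 and 831 of 7942. The 86 well barcodes kept on both plates are positions on different plates and mark no shared cells.

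Il2ra, which encodes CD25, was found in 91.7% of the Tcf7-/- cells at 20000 counts, against 70.8% of the WT cells, and Cd44 in 2 of 84 Tcf7-/- cells, against 3 of 72 WT cells. Transcripts of Cd4, Cd8a or Cd8b1 were in 49 of the 84 Tcf7-/- cells (58.3%), against 4 of the 72 WT cells (5.56%), although the gate excluded cells with the CD4 and CD8 proteins. Markers of other blood cells at 0 counts in both libraries include Ncr1 and Eomes of NK cells and Igll1 and Blnk of B cells. They also include S100a8 and Adgre1 of myeloid cells, Itgax of dendritic cells and Alas2 of erythroid cells. These were picked for their 0 counts, and other markers of the same lists were present. Unthinned, the myeloid Lyz2 was in 5.38% of Tcf7-/- and 35.2% of WT cells, and the erythroid Hba-a2 in 6.45% and 21.6%. A count of 0 was found for 6 of 20 NK and cytotoxic markers in each library, and for 3 of 12 B cell markers in Tcf7-/-, against 8 in WT. It was found for 4 of 14 myeloid markers in Tcf7-/-, against 8 in WT, and for 2 of 9 erythroid markers, against 3. The 12 B cell markers summed to 59 CPM in Tcf7-/-, against 107 CPM in WT. The summed level of the 14 myeloid markers was 22.8 CPM in Tcf7-/-, against 104 CPM in WT, and that of the 9 erythroid markers was 37 CPM in Tcf7-/-, against 117 CPM in WT. The 11 markers of thymic stroma summed to 189 CPM in Tcf7-/-, against 193 CPM in WT, with Foxn1 and Krt5 at 0 in both. The 20 NK and cytotoxic markers summed to 2888 CPM in Tcf7-/-, against 1589 CPM in WT, with Gzma at 2633 CPM in Tcf7-/- and 1078 CPM in WT. The 14 dendritic markers summed to 299.6 CPM in Tcf7-/-, against 977 CPM in WT, and are mostly Ccr9, Bst2 and Tcf4, which T-cell precursors also express. The part of these cells in the results was not tested.

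Of 8255 genes with at least 10 CPM in a library of the pair, 263 (3.19%) were at least 2-fold higher in Tcf7-/- and 863 (10.5%) at least 2-fold lower, with a median log2 ratio of -0.17. The 2 Lck-cre plates, the same genotype and gate, differed by at least 2-fold either way in 431 of 8004 genes (5.38%). Their median absolute log2 ratio was 0.31, against 0.43 for Tcf7-/- and WT. The split depends on the scaling: 23.4% of the 2-fold differences were higher by the summed total, 39.2% by edgeR's TMM factors and 40.8% by DESeq2's size factors, which move the log2 ratio of every gene up by 0.21 and 0.22 before the pseudocount. Tcf7-/- had the highest level of all 5 DN2-3 libraries in 181 of the 263 higher genes, and the lowest in 590 of the 863 lower genes. WT was the lowest of the 5 in 131 of the higher genes and the highest in 658 of the lower genes. These counts share the WT library, and the ratio to WT fixes part of them. Tcf7-/- also stands apart from the other DN2-3 plates in sex-linked transcripts and form of label, which cannot be told apart from genotype here.

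**Figure D1:**
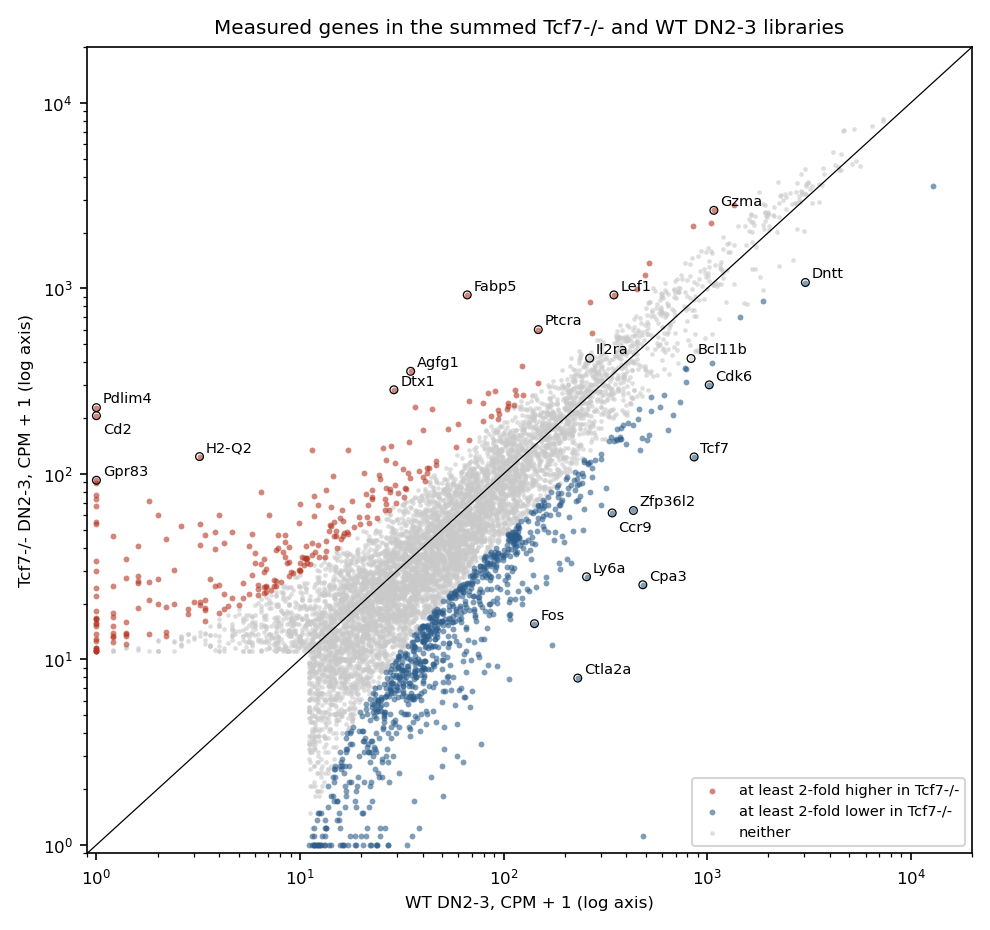
Level of each of the 8255 measured genes in the summed Tcf7-/- cells (vertical, CPM + 1, log axis) and WT cells (horizontal, CPM + 1, log axis), with the diagonal of equal levels. The 263 genes at least 2-fold higher in Tcf7-/- are red, the 863 at least 2-fold lower are blue, and Pdlim4, Cd2 and Gpr83 stand on the left edge because WT had no count of them.

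A set of genes had counts in the Tcf7-/- cells and not a single count in the 88 WT cells. By a rule of at least 20 CPM and counts in at least 20% of cells, 9 named genes were at 0 in WT: Pdlim4, Cd2, Gpr83, Izumo1r, Necab1, Exoc3l4, Adam19, Art2b and Cers4. A count of 0 was taken to allow up to 3 counts, which is 0.603 CPM in the WT library and 0.358 CPM in the Tcf7-/- library, and folds against 0 are bounds at that floor, for counting error only. Of the 84 thinned Tcf7-/- cells, 59 (70.2%) held counts of 3 or more of the 9 genes and 2 held none, while the rule itself leaves none in the 72 WT cells. The rule also used the Tcf7-/- share of cells, so these shares are a description of the chosen genes. All 9 genes also had counts in the Vav-cre plate, where 54 of 58 cells held 3 or more, and in the Lck-cre plates no cell held 3 or more of the 9. The 0 in WT holds for the DN2-3 plate only. In the WT plate of the DN1 gate (CD25-negative, CD44-positive cells), Cd2 had 448 CPM, Cers4 92.5 CPM, Adam19 88.3 CPM and Izumo1r 83 CPM. Art2b had 4.64 CPM there, and Pdlim4, Gpr83, Necab1 and Exoc3l4 had 0.

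Pdlim4 encodes a PDZ and LIM domain adaptor of the actin cytoskeleton. It had 226 CPM (216 to 237) in Tcf7-/-, against 0 in WT, at least 376-fold higher, while Vav-cre had 333 CPM and the Lck-cre plates 0 and 0.342 CPM. The lowest, median and highest thinned count per cell was 0, 1.5 and 27 in Tcf7-/-, while every WT cell had 0. Cd2 encodes an adhesion and costimulatory receptor of T and NK cells. It had 205 CPM (195 to 215) in Tcf7-/-, against 0 in WT, at least 340-fold higher, and thinned counts of 0, 2 and 22 in Tcf7-/- cells. Pdlim4 and Cd2 were found together in 36 of the 84 Tcf7-/- cells, and at least either was found in 67.

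Gpr83, an orphan receptor gene known from regulatory T cells, had 91.4 CPM (85 to 98.1) in Tcf7-/-, against 0 in WT, and 234 CPM in Vav-cre. Izumo1r, which encodes folate receptor 4 and also marks regulatory T cells, had 75.8 CPM (70.1 to 82) in Tcf7-/-, against 0 in WT, and 214 CPM in Vav-cre. These 2 genes are neighbours on chromosome 9 that point towards each other, with 15 kb between their ends. Counts of Gpr83 were in 37 of the 84 thinned Tcf7-/- cells and of Izumo1r in 34, so neither reached the share of Pdlim4 (49) or Cd2 (54). Pdlim4 lies 1.77 Mb from Tcf7 on chromosome 11, and Adam19 lies 6.11 Mb from it. The other members had lower levels in Tcf7-/-: Necab1, a calcium-binding protein gene, had 72.4 CPM, Exoc3l4 54.3 CPM, Adam19, a membrane metalloprotease gene, 52.4 CPM, Art2b, an ADP-ribosyltransferase gene of T cells, 33.1 CPM, and Cers4, a ceramide synthase gene, 23.3 CPM. By summed counts Art2b was at least 54.9-fold and Cers4 at least 38.6-fold higher. On the authors' own log2 values, averaged over cells, they differed by 0.83 and 0.62, below the cut used for 2-fold. A difference of such means is not a fold of the summed levels.

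Promoters of these genes are shown because the genes had counts in Tcf7-/- cells and none in WT cells. RefSeq (GRCm38.p6) windows of 250 bases before the annotated start were available for 8 of the 10 genes at 0 in Tcf7-/- or WT cells, in 11 windows. Capitals mark matches, on either strand, to CTTTGA (the core bound by TCF and LEF proteins), TGGGAA (RBPJ, the DNA-binding partner of Notch), TGTGGT (RUNX proteins) or CAGCTG (an E-box of E proteins). The windows of Pdlim4, Gpr83 and Izumo1r have no TCF and LEF core. That core is in 1 of the 11 windows, the most downstream start of Adam19, and in 13.8% of all 32851 windows of the table.
Pdlim4, chr11:54069018-54069267, minus strand: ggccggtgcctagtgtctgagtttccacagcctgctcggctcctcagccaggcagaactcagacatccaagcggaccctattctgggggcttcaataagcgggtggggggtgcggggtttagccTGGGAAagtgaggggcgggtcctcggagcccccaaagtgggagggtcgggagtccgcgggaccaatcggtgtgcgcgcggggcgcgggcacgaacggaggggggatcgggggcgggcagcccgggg
Gpr83, chr9:14859960-14860209, plus strand: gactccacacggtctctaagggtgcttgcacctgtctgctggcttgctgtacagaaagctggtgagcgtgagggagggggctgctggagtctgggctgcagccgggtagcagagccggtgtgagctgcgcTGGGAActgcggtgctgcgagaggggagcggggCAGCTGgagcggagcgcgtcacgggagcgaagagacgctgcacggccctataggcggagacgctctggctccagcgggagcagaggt
Izumo1r, chr9:14903768-14904017, minus strand: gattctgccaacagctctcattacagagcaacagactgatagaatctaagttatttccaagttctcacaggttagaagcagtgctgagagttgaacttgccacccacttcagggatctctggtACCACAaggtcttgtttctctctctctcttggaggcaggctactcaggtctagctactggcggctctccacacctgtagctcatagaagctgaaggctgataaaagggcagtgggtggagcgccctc
Adam19, chr11:46127654-46127903, plus strand: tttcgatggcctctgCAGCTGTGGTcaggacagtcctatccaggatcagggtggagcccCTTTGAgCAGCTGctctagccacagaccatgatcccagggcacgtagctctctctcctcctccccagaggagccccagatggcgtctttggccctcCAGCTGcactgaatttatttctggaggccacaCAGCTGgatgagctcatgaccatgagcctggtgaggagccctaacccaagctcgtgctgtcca

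Pdlim4 and Gpr83 each hold an RBPJ core, at 126 and 120 bases before the start, which 21.6% of all windows have. Izumo1r holds a RUNX core 127 bases before its start, as 14% of all windows do. In the Adam19 window the RUNX core shares letters with an E-box, and an E-box is in 13% of all windows. These matches are letters in a window and show no binding. No window was at hand for Cd2, Necab1 and Fabp5.

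**Figure D2:**
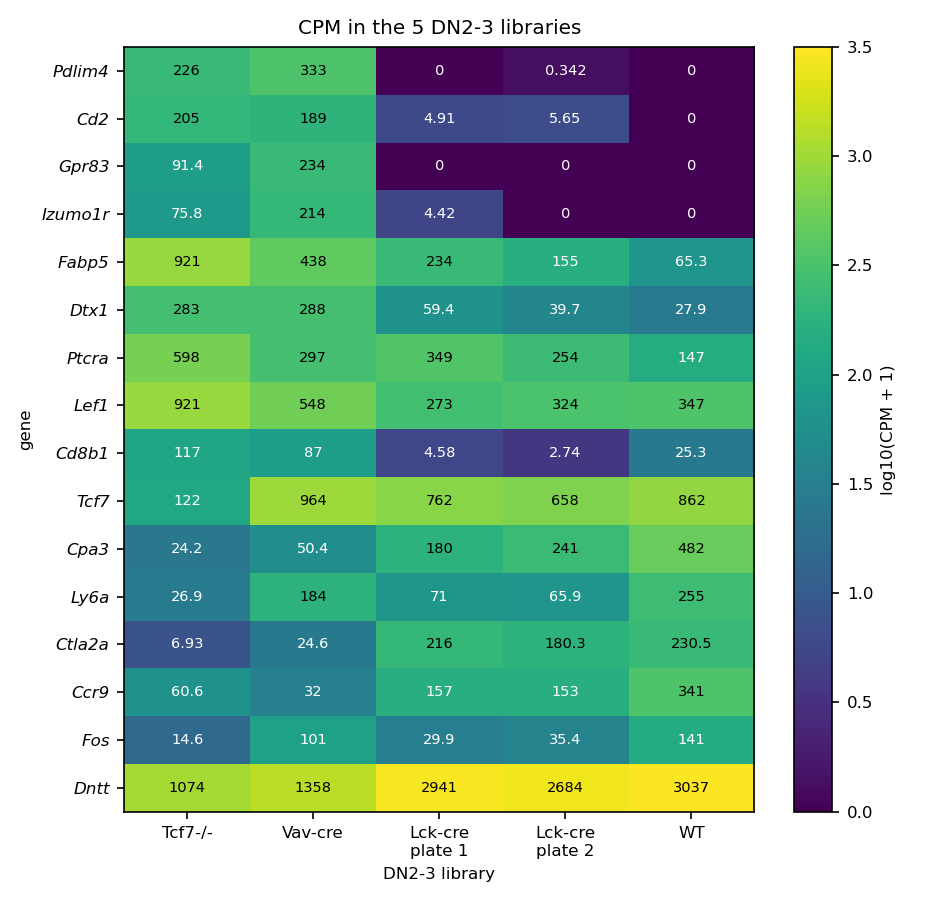
CPM of 16 genes (rows) in the 5 DN2-3 libraries (columns), printed in each cell and coloured by log10(CPM + 1). Pdlim4, Cd2, Gpr83 and Izumo1r are at 75.8 CPM or more in Tcf7-/- and Vav-cre and at 5.65 CPM or less in the Lck-cre and WT libraries, while Tcf7 is low in Tcf7-/- alone.

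Other genes that were higher in Tcf7-/- had low but detectable levels in WT. Fabp5, a fatty acid carrier protein gene, had 921 CPM (900.5 to 942) in Tcf7-/-, against 65.3 CPM (58.4 to 72.8) in WT, a log2 ratio of 3.63. Its thinned counts were 0, 17 and 60 in Tcf7-/- cells, against 0, 0 and 6 in WT cells, so the median Tcf7-/- cell lay above the highest WT cell. The Vav-cre plate, with 438 CPM, and the 2 Lck-cre plates, with 234 and 155 CPM, lay between. Agfg1, an Arf GTPase-activating family gene, had 356 CPM in Tcf7-/-, against 34 CPM in WT. Fbln2, an extracellular matrix gene, had 133 CPM in Tcf7-/-, against 10.5 CPM in WT, and Ptpn14, a tyrosine phosphatase gene, had 58.8 CPM in Tcf7-/-, against 1.00 CPM in WT. Fbp1, which encodes an enzyme of gluconeogenesis, had 70.6 CPM in Tcf7-/-, against 0.804 CPM in WT, and Drc1, a cilia gene, had 78.6 CPM in Tcf7-/-, against 5.43 CPM in WT.

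H2-Q2 had 123 CPM in Tcf7-/-, against 2.21 CPM in WT. Vav-cre had 2.28 CPM and the Lck-cre plates had 5.56 and 0.342 CPM, so Tcf7-/- stood alone. The gene belongs to a family of near-identical class I genes, so its counts could be shared with its copies and are uncertain. In the Tcf7-/- DN1 plate it had 1.44 CPM.

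**Figure D3:**
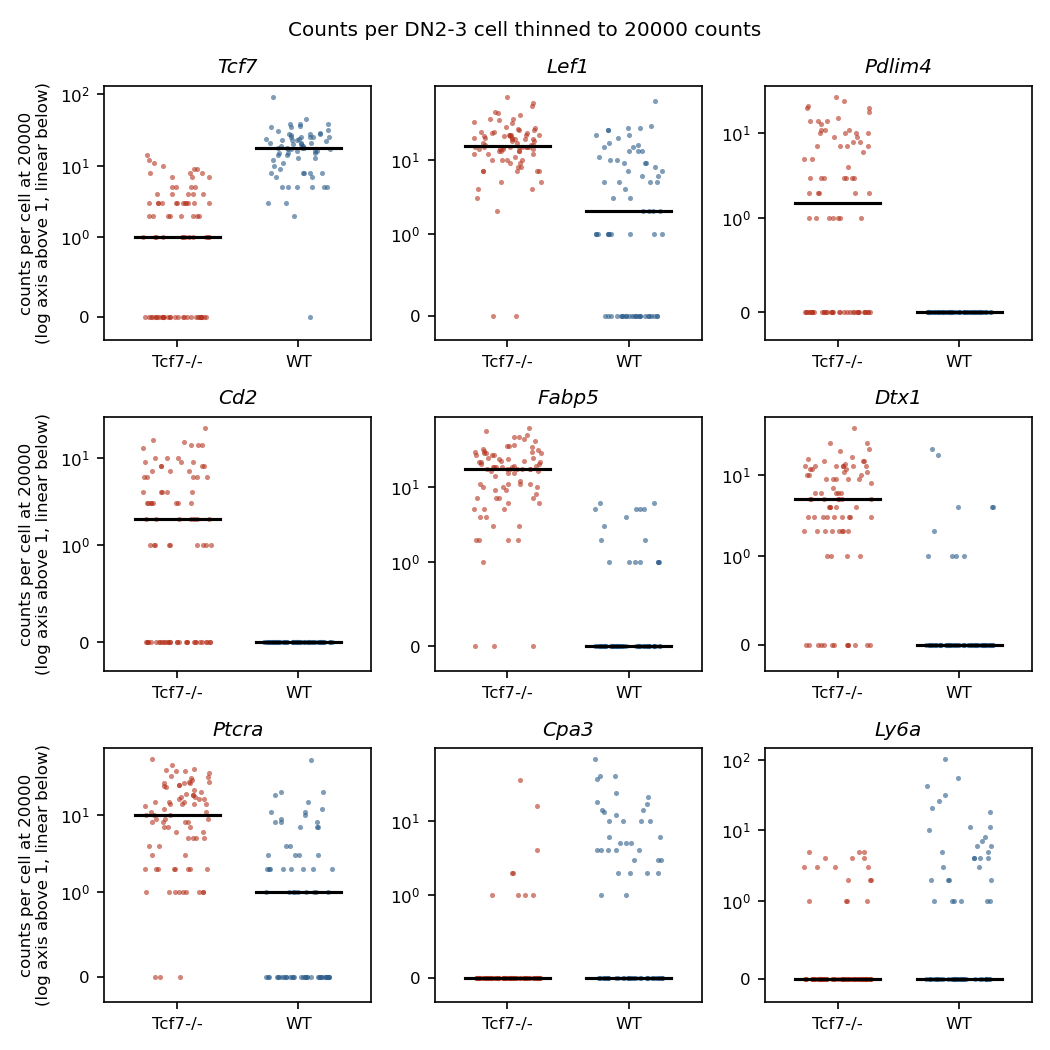
Counts per cell of 9 genes after each cell was thinned to 20000 counts (vertical, log axis above 1 and linear below), with 84 Tcf7-/- cells on the left and 72 WT cells on the right of each panel and the black bar at the median. Pdlim4 and Cd2 are at 0 in every WT cell, while Fabp5 has a median of 17 in Tcf7-/- cells and 0 in WT cells.

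Most Notch genes lay under 2-fold. Of 15 measured members, 3 were at least 2-fold higher, 1 lower and 11 neither, beside 3.19% and 10.5% of all genes. Their median was -0.17, equal to that of all genes to 2 decimals. Dtx1, a Notch target that encodes a ubiquitin ligase, had 283 CPM (272 to 295) in Tcf7-/-, against 27.9 CPM (23.5 to 33) in WT, with thinned counts of 0, 5 and 39 in Tcf7-/- cells, against 0, 0 and 21 in WT cells. Most Tcf7-/- cells held Dtx1 (84.5%, or 93.5% unthinned), and few WT cells did (13.9%, or 18.2% unthinned). Dtx1 had 288 CPM in Vav-cre. Ptcra, also a Notch target, had a log2 ratio of 1.95, and Heyl, a repressor gene, had 12.9 CPM in Tcf7-/-, against 0.402 CPM in WT. The receptors Notch1 (-0.20) and Notch3 (-0.17), the target Hes1 (-0.52) and Rbpj (-0.55) did not reach 2-fold, nor did Myc (-0.14). The 1 lower member was Lztfl1, found in 13.1% of thinned Tcf7-/- cells and 23.6% of WT cells.

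Ptcra was higher while the CD3 chains were not. Ptcra had 598 CPM (582 to 615) in Tcf7-/-, against 147 CPM (137 to 158) in WT, and thinned counts of 0, 10 and 54 in Tcf7-/- cells, against 0, 1 and 52 in WT cells. The 5 other measured chains stayed under 2-fold: Cd3d (0.46), Cd247 (0.19), Cd3g (0.03), Cd3e (-0.34) and Fcer1g (-0.59). Of the 23 proximal signalling genes, 4 were higher and 3 lower, with a median of -0.31, beside 3.19% higher and 10.5% lower of all genes. Zap70, the kinase recruited to the receptor, had 114 CPM in Tcf7-/-, against 28.3 CPM in WT. Txk (1.10), a Tec family kinase gene, Fyn (1.02), a Src family kinase gene, and Cd6 (1.01), a surface receptor gene, were just past 2-fold, and Txk was at 0.47 with thinned cells and Fyn at 0.69 without the cells that held 6 or more counts of the progenitor markers Cpa3, Kit, Cd34, Mpo, Flt3 and Lyl1. The lower genes were Grap2 (-1.35), an adaptor gene, Rasgrp1 (-1.33), a Ras activator gene, and Themis (-1.18), a regulator of thymocyte selection that was at -0.59 without the mitotic cells, those with 10 or more thinned counts of G2 and M phase genes. Lck, the kinase upstream of Zap70, had 983 CPM in Tcf7-/-, against 1890 CPM in WT (-0.94).

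In the TCF and LEF family with its partners, Lef1 was higher and 5 of 10 measured members were lower. Beside these, 3.19% of all genes were higher and 10.5% lower. The list median was -1.04. That median ranged from -1.81 to -0.25 over 16 alternatives and was under 2-fold in 9 of them. Lef1, the closest relative of Tcf7, had 921 CPM (900.4 to 942) in Tcf7-/-, against 347 CPM (331 to 364) in WT, with thinned counts of 0, 15.5 and 71 in Tcf7-/- cells, against 0, 2 and 63 in WT cells. Tcf7-/- cells sat higher, with wide overlap, and without the progenitor-marked cells the Lef1 ratio was 0.98. Besides Tcf7 the lower genes were Tcf7l2 (-1.71), another family member, Apc (-1.27) and Ctnnb1 (-1.15), the negative regulator and the coactivator of the Wnt pathway, and Tle3 (-1.24), a corepressor gene. Ctnnb1 was at -0.71 without the progenitor-marked cells and Apc at -0.87 with thinned cells.

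Most factors of T lineage commitment lay under 2-fold. Of 18 measured, 1 was higher and 1 lower, beside 3.19% and 10.5% of all genes. The list median was -0.47, below the -0.17 of all genes, and 6 of the 18 ratios were above 0. Bcl11b, which seals commitment, had 418 CPM (404 to 432) in Tcf7-/-, against 833 CPM (807 to 858) in WT (-0.98), and was found in 90.5% of the thinned Tcf7-/- cells and 91.7% of the WT cells, with medians of 7 counts in Tcf7-/- and 15 in WT. Gata3 (-0.40), Runx1 (-0.83) and Satb1 (-0.89) also lay under 2-fold, and Myb (-1.19) passed it by the summed total but not by TMM factors (-0.99). Ikzf3, an Ikaros family gene, had 38.6 CPM in Tcf7-/-, against 2.81 CPM in WT. Of 9 E protein and Id genes, 2 were higher and 2 lower, beside 3.19% and 10.5% of all genes. Id3, which inhibits E proteins downstream of the pre-T-cell receptor, had 266 CPM in Tcf7-/-, against 124 CPM in WT (1.04). Without the mitotic cells its ratio was -0.40. The lower genes were Tcf4, also an E protein gene, and Cbfa2t3 (-1.20, and -0.995 by DESeq2 factors). Tcf4 was in 39.3% of thinned Tcf7-/- cells and 55.6% of WT cells. Tcf3 (-0.18) and Tcf12 (-0.18), the E protein genes E2A and HEB, were near the median of all genes.

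Most recombination genes were under 2-fold. Dntt, which adds nucleotides at the joints, had 1074 CPM in Tcf7-/-, against 3037 CPM in WT (-1.49), with thinned counts of 2, 19.5 and 77 in Tcf7-/- cells, against 9, 66 and 147 in WT cells. Every cell held Dntt, and Tcf7-/- cells held less. The recombinase genes Rag1 (0.20) and Rag2 (0.99) did not reach 2-fold. Of the 10 measured genes 2 were lower, beside 10.5% of all genes. The 2 were Dntt and Prkdc (-1.25), a repair kinase gene that was at -0.27 without the mitotic cells.

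Of 8 measured effector genes of progenitors and mast cells, 5 were lower and none higher, beside 10.5% and 3.19% of all genes. Their median was -1.19. Cpa3, a mast cell carboxypeptidase gene that early thymic progenitors also express, had 24.2 CPM (21 to 27.8) in Tcf7-/-, against 482 CPM (463 to 502) in WT, a log2 ratio of -3.85. It was in 9 of the 84 thinned Tcf7-/- cells (10.7%), against 35 of the 72 WT cells (48.6%), or 14% of Tcf7-/- against 65.9% of WT cells unthinned, and 1 cell held 59.6% of its Tcf7-/- counts. Ly6a, which encodes Sca-1, had 26.9 CPM (23.5 to 30.6) in Tcf7-/-, against 255 CPM (241 to 269) in WT. Kit, the stem cell factor receptor gene, had 0.358 CPM in Tcf7-/-, against 14.5 CPM in WT, Cd93 had a ratio of -1.90, and Plac8 -1.13. Of 7 measured transcription factor genes of progenitors, 2 were lower, Nfe2 (-1.95) and Hhex (-1.49), 1 was higher, Lyl1 (1.02, and 0.04 without the progenitor-marked cells), and 4 were neither. Their median was -0.37, which changed sign under 3 alternatives. Without the progenitor-marked cells Kit was at -0.23, Plac8 at -0.50 and Hhex at -0.11, and that filter uses Kit and Cpa3 itself. Hoxa7, a homeobox gene, had 0 counts in Tcf7-/- and 32.6 CPM in WT, at least 90.8-fold lower by summed counts, while the authors' log2 values, averaged over cells, differed by -0.62.

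Single cells showed how the progenitor and pre-T-cell receptor genes were combined. At 20000 counts per cell, 72 of 84 Tcf7-/- cells (85.7%) held Ptcra and no Cpa3, against 26 of 72 WT cells (36.1%). Cells with Cpa3 and no Ptcra numbered 0 in Tcf7-/-, against 22 (30.6%) in WT, and 9 Tcf7-/- and 13 WT cells held both. Fewer cells of a type and less RNA per cell cannot be told apart in the summed values. When the cells with at least 6 progenitor marker counts were left out, 84 of all 93 Tcf7-/- and 56 of all 88 WT cells remained. The ratios then were 4.61 for Pdlim4, 4.41 for Cd2, 3.56 for Fabp5, 2.11 for Dtx1 and 1.30 for Ptcra, while Ly6a was at -1.25 and Dntt at -1.45.

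**Figure D4:**
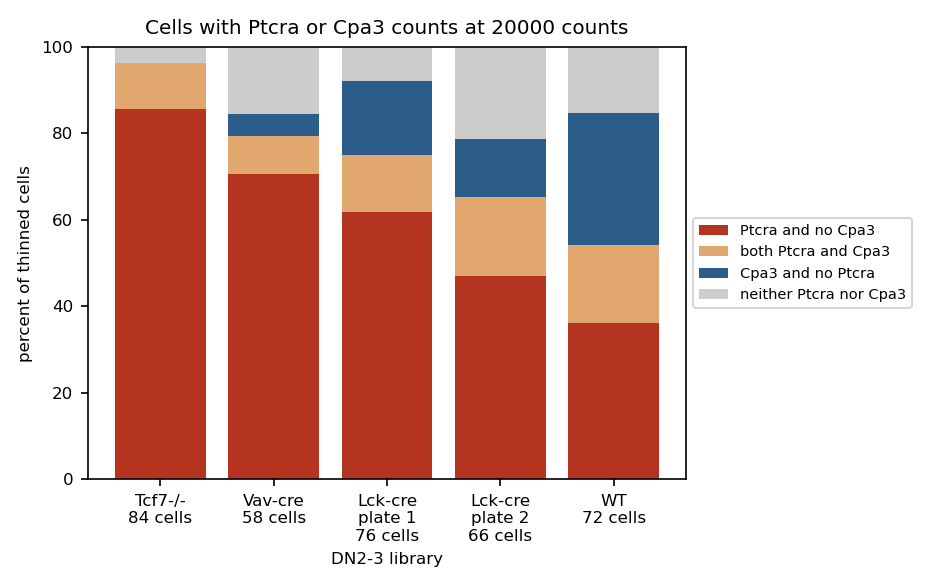
Share of thinned cells (vertical, percent) with counts of Ptcra, Cpa3, both or neither in the 5 DN2-3 libraries, with the number of cells under each bar. Cells with Cpa3 and no Ptcra make up 0% of Tcf7-/-, 5.17% of Vav-cre, 17.1% and 13.6% of the Lck-cre plates and 30.6% of WT.

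Among the genes with the lowest ratios by the naming rule, Ctla2a, a cysteine protease inhibitor gene, had 6.93 CPM (5.26 to 8.96) in Tcf7-/-, against 230.5 CPM (217 to 244) in WT, and was in 7 thinned Tcf7-/- cells, against 39 WT cells. Vav-cre was low as well, with 24.6 CPM, and the Lck-cre plates were near WT, with 216 and 180.3 CPM. Zfp36l2, whose protein promotes messenger RNA decay, had 62.5 CPM in Tcf7-/-, against 433 CPM in WT, and thinned medians of 0 in Tcf7-/- and 5.5 in WT. Tsc22d3 (-2.42), a glucocorticoid-induced gene, Serpinb1a (-2.48), a protease inhibitor gene, Osbpl1a (-2.42), an oxysterol-binding family gene, Neat1 (-2.35), a nuclear noncoding RNA, and Fut8 (-2.32), a fucosyltransferase gene, were also among the lowest. So were Gria3 (-2.34), a glutamate receptor subunit gene, Slc27a1 (-2.33), a fatty acid transporter gene, and Tifa (-2.29), a TRAF adaptor gene. Without the progenitor-marked and the mitotic cells, 28 Tcf7-/- and 33 WT cells remained and the Serpinb1a ratio was 0.62.

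Genes of migration differed in both directions. Ccr9, the receptor for the thymic chemokine CCL25, had 60.6 CPM (55.4 to 66.1) in Tcf7-/-, against 341 CPM (325 to 357) in WT, and thinned counts of 0, 0 and 11 in Tcf7-/- cells, against 0, 5 and 39 in WT cells. Itga4, an integrin subunit gene, had 66.8 CPM in Tcf7-/-, against 301 CPM in WT. Klf2 (1.10), a factor that drives exit from the thymus, and Ccr7 (15.5 CPM in Tcf7-/-, against 0 in WT) were higher, though Klf2 was at 0.47 with thinned cells and Ccr7 at 0.15 without the mitotic cells. Of the 10 measured genes of this list, 2 were higher and 2 lower, beside 3.19% and 10.5% of all genes.

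Of 11 measured immediate-early and AP-1 genes, 5 were lower and none higher, beside 10.5% and 3.19% of all genes. A ratio above 0 was found in 4 of them. The median was -0.95. Fos had 14.6 CPM (12.1 to 17.4) in Tcf7-/-, against 141 CPM (131 to 152) in WT, and Jun 24.7 CPM in Tcf7-/-, against 161 CPM in WT. Both encode subunits of AP-1. Fosb (-1.63), Jund (-1.52) and Junb (-1.01) were lower as well, Junb at -0.87 by TMM factors, and Dusp1 (0.37), Ier2 (0.16) and Klf6 (0.19) were not. These genes also respond to cell handling, whose part was not tested. In the Lck-cre plates Fos had 29.9 and 35.4 CPM, nearer to Tcf7-/-, while Vav-cre had 101 CPM, nearer to WT.

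Of 18 measured interferon-stimulated genes, 10 were lower and none higher, beside 10.5% and 3.19% of all genes. Their median was -1.13. The median was -0.61 without the mitotic cells and -0.34 with the authors' log2 values. The list summed to 672 CPM in Tcf7-/-, 1769 CPM in Vav-cre, 949 and 952 CPM in the Lck-cre plates and 1624 CPM in WT. Oasl2 (-2.79), Ifit1 (-2.33) and Rsad2 (-2.22), antiviral effector genes, had 2.51, 5.73 and 0.239 CPM in Tcf7-/-, against 76.8, 69.1 and 37.6 CPM in WT. Irf7 (-1.81), a transcription factor that amplifies the response, and Bst2 (-1.56), which encodes tetherin, were lower as well. Without the progenitor-marked cells the ratio of Ifit1 was -0.82 and that of Bst2 -1.60. None of the 11 measured genes of class I presentation was 2-fold different. In the Ly6 family, Ly6a and Ly6c1 (-2.19) were lower, and Ly6d (-0.42) and Ly6e (-0.44) were not, of 5 measured.

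Cytokine signalling genes leaned low. Of 17 measured 4 were lower and none higher, beside 10.5% and 3.19% of all genes, with a median of -0.49. The lower genes were Bcl2 (-1.54), the survival gene, Ifngr1 (-1.17), Jak1 (-1.17) and Il4ra (-1.10). Bcl2 was at -0.96 when cells were weighted equally, Il4ra at -0.16 without the progenitor-marked cells, and Ifngr1 and Jak1 at -0.97 by TMM factors. Il7r, the receptor gene for the survival cytokine of DN cells, had 155 CPM in Tcf7-/-, against 209 CPM in WT (-0.41). Il2ra, the gate gene, had 419 CPM in Tcf7-/-, against 264 CPM in WT (0.65).

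Surface receptors of later T cells were higher in part. Among 15 measured costimulatory and regulatory receptor genes, 3 were higher (Cd2, Gpr83 and Izumo1r) and 2 lower, with a median of 0.24, beside 3.19% and 10.5% of all genes. The 3 higher genes are among those at 0 counts in WT. The lower genes were Cd69 (-2.13), an activation marker that also differed by -1.89 between the Lck-cre plates, and Cd53 (-1.03), at -0.25 without the progenitor-marked cells. Cd8b1 had 117 CPM (110.2 to 125) in Tcf7-/-, against 25.3 CPM (21.1 to 30.1) in WT, and was in 39 of 84 Tcf7-/- cells, against 3 of 72 WT cells. Its ratio was 0.93 without the progenitor-marked cells. Cd4 had 10.2 CPM in Tcf7-/-, against 0 in WT, and Cd8a had a ratio of 0.72. Other genes of the double-positive stage did not follow: Endou (-1.32) and Cd1d1 (-1.07) were lower, the second at -0.20 without the mitotic cells, and Arpp21 (-0.87) and Cd24a (-0.30) lay under 2-fold.

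**Figure D5:**
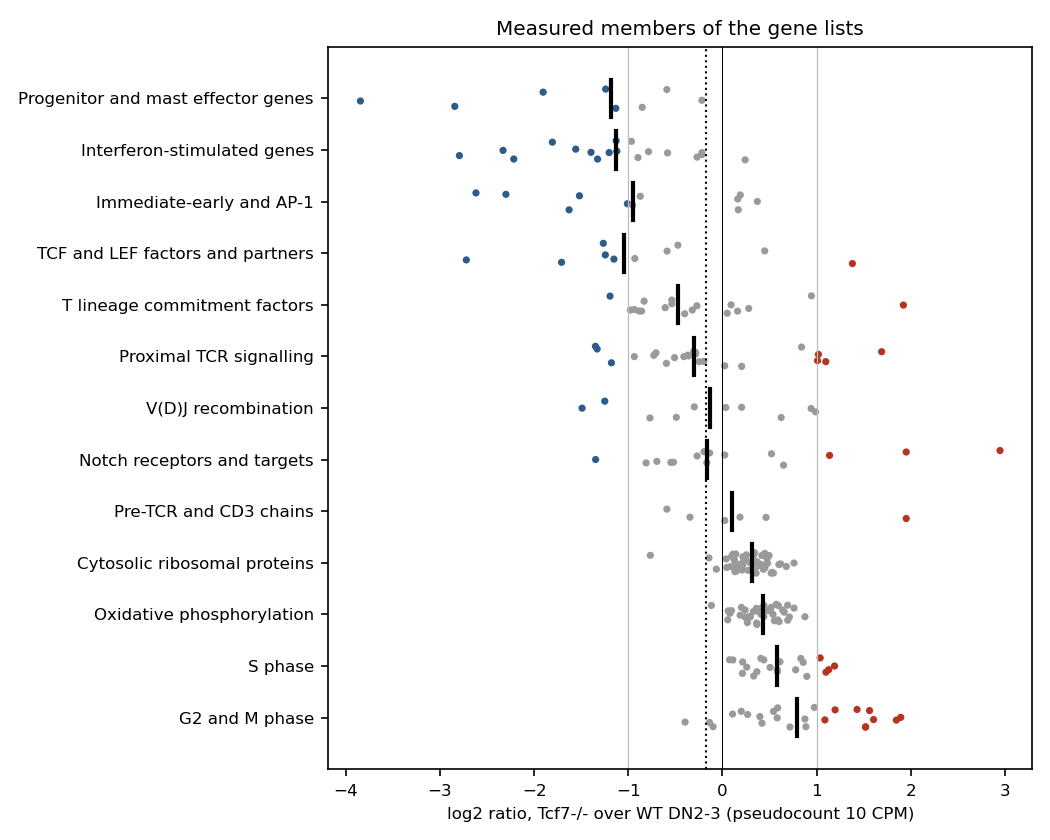
Log2 ratio of Tcf7-/- over WT (horizontal) for each measured member of 13 gene lists, red at 2-fold higher or more and blue at 2-fold lower or more, with the list median as a black bar and the median of all genes (-0.17) as a dotted line. The lists run from progenitor and mast effector genes with a median of -1.19 to G2 and M phase genes with a median of 0.80.

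Cell cycle genes leaned higher. Of 24 measured genes of the G2 and M phases, 9 were higher and none lower, with a median of 0.80. Of 21 S phase genes 4 were higher and none lower, with a median of 0.58. Beside them, 3.19% of all genes were higher and 10.5% lower. Between the Lck-cre plates the medians were 0.14 for G2 and M phase genes and 0.35 for S phase genes. The S phase list summed to 4752 CPM in Tcf7-/- and 2907 CPM in WT. It summed to 4659 and 3769 CPM in the Lck-cre plates and 2596 CPM in Vav-cre. Cenpf, a kinetochore protein gene, had 172 CPM in Tcf7-/-, against 39 CPM in WT, Ccnb1, a mitotic cyclin gene, 66.5 CPM in Tcf7-/-, against 11.3 CPM in WT, and Ccnb2 272 CPM in Tcf7-/-, against 82.6 CPM in WT. Rrm2 (1.19) and Dut (1.13), which supply nucleotides for replication, and Mcm5 (1.04), a helicase subunit gene, were among the higher S phase genes. At least 10 counts of the G2 and M phase list were in 51 of 84 thinned Tcf7-/- cells (60.7%), against 22 of 72 WT cells (30.6%), and in 22.4% of Vav-cre cells and 40.8% and 34.8% of Lck-cre cells. G1 regulators differed from this: Cdk6 (-1.73), with 300.8 CPM in Tcf7-/-, against 1023 CPM in WT, and Ccnd3 (-1.41) were lower, and Ccne1 (0.91), Ccne2 (0.81) and E2f1 (0.89) lay under 2-fold. With the mitotic cells left out, 33 of the 84 Tcf7-/- and 50 of the 72 WT cells remained and the ratio of Pdlim4, Fabp5, Dtx1 and Ptcra stayed over 2-fold.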

How the data were processed

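Per the labels' protocols, single-cell cDNA was made with a modified STRT method and sequenced as 150-bp paired reads; the same text also names Smart-seq2 for the libraries, so which part of a transcript was counted is not settled, and per the submitters' processing notes alignment used TopHat2 2.1.1 and counting HTSeq, on mm10. The authors deposited a table of raw counts and a table of log2 values, log2(TPM/10 + 1), of which the second served as an alternative. Of 23154 entries 27 had a date for a symbol (0.141% of counts) and were dropped, and no mitochondrial genes are in the file. Counts of kept cells were summed per library and divided by the total (Python 3.11.15, scipy 1.17.1, edgeR 4.0.16 and DESeq2 1.42.0 for scaling factors only). Intervals are exact Poisson or Clopper-Pearson ones. PCR copies are not independent molecules, and the sources used here do not say whether molecular identifiers were used. The arithmetic of the summed values was run on simulated counts with counting error only. These hold no variation between cells, plates or animals, so they check the arithmetic alone. Each well held a sorted cell, and doublets were not called.

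Named genes are the 15 highest and 15 lowest log2 ratios among genes with at least 50 CPM in a library, counts in at least 20% of cells of the higher library and under 30% of its counts in its highest cell. Also named are genes at 0 in a library and at least 20 CPM in the other, in at least 20% of its cells, and members of 40 gene lists, which include 6 markers. Unnamed gene models, Xist and Y-linked genes were not ranked. The members, lists and rules were chosen with earlier results of these data known. Positions are those of GENCODE on mm10.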

Additional observations from a re-analysis of the deposited data

Results flagged for a closer look

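The same genotypes were also compared in the DN1 gate, which takes CD25-negative, CD44-positive cells, with 1 plate of 96 kept Tcf7-/- cells and 1 of 86 kept WT cells. In 10 of the 35 named genes the DN1 ratio was at least 2-fold the opposite way from the DN2-3 ratio. Of all 1126 genes at least 2-fold different in DN2-3, 144 (12.8%) were opposite in DN1. They were 14 of the 263 higher genes (5.32%) and 130 of the 863 lower genes (15.1%). Most named genes were picked for extreme ratios and at higher levels than that set requires, so the 2 shares are of unlike sets. This difference between gates was not tested, since each is 1 library, and the gates hold different mixes of cells. Cpa3 had a ratio of 5.22 in DN1 (415 CPM in Tcf7-/-, against 1.41 CPM in WT) and -3.85 in DN2-3. Osbpl1a had 2.81 in DN1 and -2.42 in DN2-3, Serpinb1a 2.56 and -2.48, and Gria3 2.23 and -2.34. Ccr9, with 1.62 in DN1, and Hoxa7, with 1.51, were also opposite, as were Fos with 1.40, Slc27a1 with 1.36 and Tifa with 1.11. Cd2 went the other way, with -1.24 in DN1 (184 CPM in Tcf7-/-, against 448 CPM in WT) and 4.43 in DN2-3.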

How the results depend on the processing

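Gene counts were recomputed under 16 alternatives and list medians under up to 16, and single genes under the 13 of these that can move a ratio. Of the 16, 14 were planned, while the autosomal genes alone and the joint removal of progenitor-marked and mitotic cells were added after seeing the data. Tcf7 stayed between -3.52 and -2.51: -2.83 with thinned cells, -2.52 by TMM, -2.51 by DESeq2 factors, -3.52 with the authors' log2 values, -2.92 without progenitor-marked cells, -2.89 without mitotic cells and -3.17 without both. The number of genes at least 2-fold higher was 435 with cells weighted equally, 559 with a pseudocount of 1 CPM, 116 at a floor of 50 CPM, 400 by TMM, 417 by DESeq2 factors and 410 with the authors' log2 values, and 447, 665 and 908 without progenitor-marked cells, without mitotic cells and without both. The number lower was 1565 with a pseudocount of 1 CPM, 406 at a floor of 50 CPM, 150 with the authors' log2 values and 1456 without both kinds of cells. Why these counts move was not tested. Of 35 named genes 29 stayed at least 2-fold under every alternative run, and Serpinb1a, at 0.62 without both kinds of cells, changed sign. For the authors' log2 values, 2-fold stands for a difference of at least 1 between means over cells, which is not a ratio of summed levels. Of 38 lists 20 medians changed sign under some alternative and 7 under a scaling: those of the Notch, E protein and Id, V(D)J, G1, fatty acid, gamma-delta and p53 lists. Removing mitotic cells uses the G2 and M phase list itself and turned that median to as low as -0.36. Leaving out cells with markers of other blood cells left 0 Tcf7-/- and 2 WT cells, so that alternative gave no value. No paired analysis was possible because each genotype is 1 library and the results come from no test. A gene at 0 counts may have up to 0.358 CPM in Tcf7-/- and 0.603 CPM in WT, the level of 3 counts.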

Other observations

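Genes of growth leaned above the median of all genes (-0.17) in the ratio of Tcf7-/- over WT. Of 38 nuclear genes of oxidative phosphorylation 37 had a positive log2 ratio, with a median of 0.43 and none at 2-fold, and the median between the Lck-cre plates was -0.02. That list summed to 28753 CPM in Tcf7-/-, the highest DN2-3 library, and 20626 CPM in WT, the lowest. Of 48 ribosomal protein genes 45 were positive, with a median of 0.31, and Rps2 (-0.77) was the exception farthest below 0. Here WT was the lowest DN2-3 library, at 134601 CPM summed, and Vav-cre, at 162141 CPM, lay above Tcf7-/-, at 160543 CPM. Lck-cre plate 1 held 158061 CPM of this list and plate 2 held 153360 CPM. The ribosomal lean is therefore not particular to Tcf7-/-. In glycolysis 1 of 16 genes, Pfkp (1.01), was 2-fold higher, beside 3.19% of all genes. In the Bcl2 family, Bid (1.24), which promotes death, and Bcl2l1 (1.16), which encodes Bcl-xL, were higher and Bcl2 lower. Malat1, a nuclear noncoding RNA, had 3542 CPM in Tcf7-/-, against 12869 CPM in WT. It was chosen after its values were seen.

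Of 20 NK and cytotoxic markers 4 were measured, and 2 were higher, Gzma and Gzmb (1.74), and 2 lower, Nkg7 (-1.17) and Ifng (-1.56). Gzmb was at -0.72 without the progenitor-marked cells, and 1 cell held 93.8% of the WT counts of Ifng. Gzma, a granzyme gene, had 2633 CPM in Tcf7-/-, against 1078 CPM in WT, and was in all 84 thinned Tcf7-/- cells and 65 of 72 WT cells, with 9343 CPM in Vav-cre. Cd163l1, a receptor gene of gamma-delta T cells, had 229.7 CPM in Tcf7-/-, against 35.8 CPM in WT, and 24.9 CPM in Vav-cre. Of 5 measured genes of the gamma-delta list it and Id3 were higher and 5830411N06Rik (-1.58) was lower. Among genes linked to T-cell leukaemia, 3 of 13 were higher (Lef1, Nfkb2 at 1.03 and Lyl1 at 1.02) and 1 lower (Lmo1 at -1.11), and Tal1, Tlx1, Tlx3 and Lmo2 had 0 counts in both libraries. Lyl1 was at 0.04 without progenitor-marked cells. Beside the counts of these lists, 3.19% of all genes were higher and 10.5% lower.

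Within 10 Mb of Tcf7, 4 of 128 measured genes were higher (3.12%) and 22 lower (17.2%), beside 3.19% and 10.5% of all genes. Pdlim4 had 5.29 CPM in the Tcf7-/- DN1 plate and 0 in WT DN1, so it was much lower there than in the DN2-3 gate.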
